A study of Mus musculus with 36 samples.

Results

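The members of the miR-106a-363 and miR-106b-25 clusters, the paralogs of the miR-17-92 cluster, were followed in mouse pre-B cells before and after induction of the transcription factor Ikaros. They were chosen by name: every entry for miR-106a, miR-18b, miR-20b, miR-363, miR-106b, miR-93 and miR-25, whichever arm, together with miR-19b-2-5p and miR-92a-2-5p (in full mmu-miR-106a-5p, mmu-miR-106a-3p, mmu-miR-106b-5p, mmu-miR-106b-3p and so on). This rule found 16 of the 469 miRNAs in the table, 10 from the miR-106a-363 cluster and 6 from the miR-106b-25 cluster. Small RNA was sequenced from B3, an established mouse pre-B cell line, in 36 samples. The Ikaros line carried an MSCV retrovirus encoding HA-Ikaros-ERt2-IRES-GFP, in which tagged wild type Ikaros is fused to a hormone-binding domain of the estrogen receptor, and the control line carried the vector with ERt2 and GFP but no Ikaros. Added 4-hydroxy-tamoxifen (4-OHT) lets the fusion protein into the nucleus, and each line was sampled 3 times at each of 6 time points, 0, 2, 6, 12, 18 and 24 h. According to the labels even the 0 h samples had 0.5 uM 4-OHT, but in the methods 0 h precedes treatment. Each line was a GFP-sorted pool made by transduction of 1 cell line, so the replicates are cultures of a pool and not separate transductions.

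MicroRNAs are cut from hairpins in longer transcripts, and each hairpin can release a 5p and a 3p arm. The seed, bases 2 to 8 of the mature sequence, does most of the pairing with target mRNAs, so miRNAs with the same seed share many predicted targets. The miR-17-92 cluster and its paralogs carry largely the same seeds. The family is known for promoting proliferation and survival of lymphocyte progenitors, and miR-17-92 is required for the pro-B to pre-B transition. Ikaros, in turn, is known for moving large pre-B cells out of the cell cycle.

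The miR-106a-363 cluster consists of 6 minus-strand hairpins on chromosome X (GRCm38.p6, hairpin positions from RefSeq, gene annotation from GENCODE). In the direction of transcription they are Mir106a at chrX:52742503-52742567, Mir18b at chrX:52742331-52742413, Mir20b at chrX:52742113-52742192, Mir19b-2 at chrX:52741983-52742066, Mir92-2 at chrX:52741838-52741928 and Mir363 at chrX:52741693-52741767. Only the few bases at the 5′ end of Mir106a overlap exons of the noncoding transcript Kis2 (chrX:52742563-52744960), which is on the same strand. The other hairpins of this cluster overlap no other annotated gene. The miR-106b-25 cluster lies on the minus strand of chromosome 5 inside Mcm7, which encodes a subunit of the replicative helicase and is read on the same strand. Its hairpins are Mir106b at chr5:138165737-138165818, Mir93 at chr5:138165523-138165610 and Mir25 at chr5:138165321-138165404. Mir106b overlaps no exon of Mcm7, and Mir93 and Mir25 each overlap 1 exon, which belongs to a transcript annotated as a retained intron.

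RefSeq gave a mature sequence for 15 of the 16 members, miR-363-5p being the exception. The sequences that define the seed groups are shown with the seed in capitals, each beside its relative from miR-17-92, because later comparisons set such pairs against each other. The first group holds 4 members and 2 miR-17-92 arms with the seed AAAGUGC.
miR-106a-5p: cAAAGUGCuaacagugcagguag
miR-20b-5p: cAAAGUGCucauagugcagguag
miR-106b-5p: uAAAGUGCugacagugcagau
miR-93-5p: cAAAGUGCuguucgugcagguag
miR-17-5p: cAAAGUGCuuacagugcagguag
miR-20a-5p: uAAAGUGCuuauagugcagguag
The next group has the seed AAGGUGC and holds miR-18b-5p with its relative.
miR-18b-5p: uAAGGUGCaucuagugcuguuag
miR-18a-5p: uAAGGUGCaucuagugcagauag
The seed AUUGCAC occurred in 5 of the listed miRNAs with a RefSeq sequence, of which miR-25-3p and miR-363-3p are members.
miR-25-3p: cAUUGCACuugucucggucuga
miR-363-3p: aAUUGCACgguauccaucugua
miR-92a-3p: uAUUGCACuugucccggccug
The seed GUUUUGC is shared by the 5p arms of the miR-19b hairpins on chromosome X and in miR-17-92.
miR-19b-2-5p: aGUUUUGCagauuugcaguucagc
miR-19b-1-5p: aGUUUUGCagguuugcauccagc
MiR-106a-3p and miR-20b-3p shared the seed CUGCAGU with miR-17-3p. The remaining 5 members with a sequence shared their seed with no other of the 391 listed miRNAs for which RefSeq gave a sequence by name.

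Several of these sequences are near copies. With positions counted from 1 at the 5′ end and the base of the first-named miRNA written first, miR-106a-5p differed from miR-17-5p by A10U alone, miR-20b-5p from miR-20a-5p by C1U and C10U, and miR-18b-5p from miR-18a-5p by U18A and U20A. MiR-106a-5p and miR-20b-5p differed from each other by A10C and C12U. How the counting divided reads between such copies is not given in the sources used here. The values of miR-106a-5p, miR-20b-5p and miR-18b-5p are uncertain to that extent, and so are those of miR-17-5p, miR-20a-5p and miR-18a-5p. Hairpins of both miR-17-92 and miR-106a-363 produce miR-92a-3p and miR-19b-3p, which for that reason were not counted as members. MiR-19b-2-5p and miR-92a-2-5p come from the chromosome X hairpins only.

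All values are on the log2 scale as deposited, after the authors had normalized the counts and adjusted for the sequencing batch, and the depth of the samples is unknown from them. In the study's scheme of its design, most control samples of 2 to 18 h belong to another sequencing batch than the Ikaros samples, so line and sequencing batch can be told apart at those times only through that adjustment, for which some samples were sequenced in both batches. At 0 h and 24 h both lines were mostly in the same sequencing batch. All 8 of the haematopoietic and B lineage miRNAs looked for were listed, with miR-191-5p and miR-181a-5p at the highest means of the table. The lowest of the 8 was miR-150-5p, at rank 236. It lay between 3.27 and 4.62 in the control line and between 3.07 and 4.51 in the Ikaros line. Of 19 markers of other cell types, 7 were listed. The log2 of their summed linear level ranged from 12.97 to 13.88 in the control line and from 12.72 to 13.74 in the Ikaros line, most of it miR-9-5p, and without miR-9-5p from 6.38 to 7.46 and from 7.05 to 7.99. The erythroid, liver, muscle and embryonic stem cell markers were not listed at all. The part of these miRNAs in the results was not tested, and in bulk samples fewer cells of a type and less RNA per cell cannot be told apart.

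The members covered most of the range of the table. MiR-25-3p had the highest mean over all samples (15.31, rank 5 of 469), followed by miR-93-5p (13.93, rank 11), miR-20b-5p (11.46, rank 38), miR-106b-5p (11.02, rank 45) and miR-363-3p (10.78, rank 53). MiR-92a-2-5p was the lowest, with a mean of 1.52 and rank 382. These deposited values are not per length, but the 15 members with a sequence were all 21 to 24 bases long. The 16 members together held 2.73% to 7.21% of the summed linear level of a sample.

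**Figure D1:**
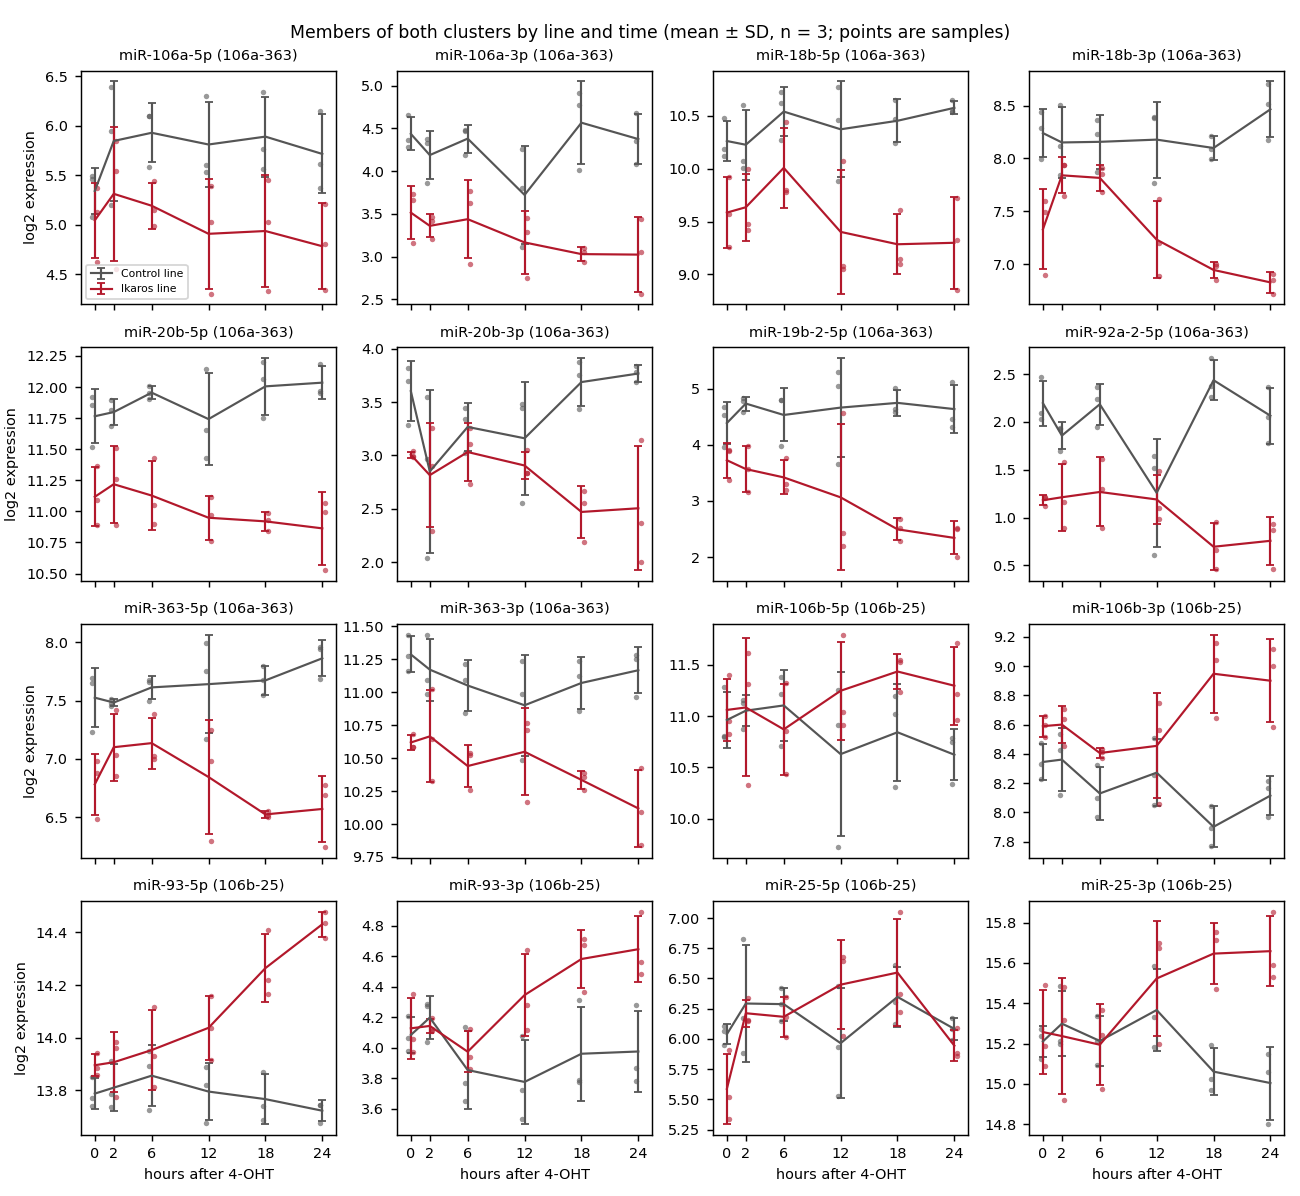
Each panel plots the deposited log2 value of 1 member against hours after 4-OHT for the control line (grey) and the Ikaros line (red); points are samples, and lines with bars are group means with SD (n = 3). The red line runs below the grey line at every time in all 10 panels of the miR-106a-363 cluster, and in the miR-106b-25 panels other than miR-25-5p it lies above it at 18 and 24 h.

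The miR-106a-363 cluster was lower in the Ikaros line. The mean of every one of its 10 arms was below the control mean at all 6 times, and for 8 of them each of the 6 control means exceeded each of the 6 Ikaros means. The exceptions were miR-92a-2-5p and miR-20b-3p. Neighbouring groups in these orders seldom differed beyond their spread: for each of the 10 arms, at most 3 of 11 neighbouring means were apart by more than the larger of their SDs. At 24 h, 10 of 10 arms fell below the threshold of an adjusted p of 0.05 (limma, Benjamini-Hochberg over 469 miRNAs), where 22.0% of all miRNAs were called lower. Their median log2 difference, Ikaros minus control, was -1.29, against -0.07 over all miRNAs.

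MiR-19b-2-5p, the partner arm of the chromosome X copy of miR-19b, showed the largest difference among the members. At 24 h its control samples were at 5.13, 4.33 and 4.46 and its Ikaros samples at 2.50, 2.53 and 2.00. All 3 Ikaros samples lay well below the control samples. The log2 difference was -2.29 (SE 0.42), or 4.91-fold lower on this scale, with adjusted p = 7.26e-05. At 0 h the same arm was at 4.67, 4.54 and 3.95 in the control line and at 3.92, 3.89 and 3.37 in the Ikaros line. There the lines were separated by only the narrow gap between 3.95 and 3.92, and the difference of -0.66 had adjusted p = 0.526.

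MiR-18b-3p, the partner arm of miR-18b, was at 8.18, 8.51 and 8.70 in the control samples and at 6.72, 6.85 and 6.91 in the Ikaros samples at 24 h. Its log2 difference of -1.64 (SE 0.21, 3.11-fold lower) had the smallest adjusted p of the members, 3.40e-07. Before induction the control samples were at 8.29, 8.44 and 7.99 and the Ikaros samples at 7.50, 7.59 and 6.90, a difference of -0.91 (adjusted p = 0.00328). The lines were thus already apart, without overlap, at 0 h. MiR-18b-5p, the other arm of this hairpin, was at 10.65, 10.54 and 10.55 against 9.32, 9.72 and 8.85 at 24 h, which gave -1.28 (SE 0.27, adjusted p = 0.000342).

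MiR-20b-5p, the most abundant arm of the cluster and a carrier of the AAAGUGC seed, was at 11.95, 12.19 and 11.97 in the control line and at 11.07, 11.00 and 10.53 in the Ikaros line at 24 h. It was the member whose samples did not overlap between the lines at any of the 6 times, and its log2 difference was -0.65 at 0 h (adjusted p = 0.0233) and -1.17 at 24 h (SE 0.19, adjusted p = 1.21e-05). The change between these values, -0.52, did not pass its own test (adjusted p = 0.208). MiR-20b-3p was at 3.84, 3.68 and 3.78 against 3.14, 2.00 and 2.37, a difference of -1.26 (SE 0.31, adjusted p = 0.00186). The 2 arms of miR-20b stood about 8 log2 units apart in level and differed between the lines by nearly equal amounts.

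MiR-363-3p, which has the seed of miR-25 and miR-92a, was at 10.97, 11.28 and 11.25 in the control samples at 24 h and at 9.84, 10.09 and 10.43 in the Ikaros samples. The difference was -1.05 (SE 0.20, adjusted p = 8.64e-05), and at 0 h it was -0.67 (adjusted p = 0.0233). MiR-363-5p was at 7.96, 7.94 and 7.69 against 6.69, 6.77 and 6.24, a difference of -1.29 (SE 0.22, adjusted p = 2.38e-05). Both arms of this last hairpin of the cluster were therefore lower in every Ikaros sample than in any control sample. MiR-92a-2-5p, the partner arm of the chromosome X copy of miR-92a, was at 1.78, 2.06 and 2.36 against 0.46, 0.93 and 0.87 (-1.31, SE 0.25, adjusted p = 0.000117). These levels are close to the lowest value of the table, 0.09, so this difference stands for a small normalized amount. MiR-106a-3p was at 4.68, 4.36 and 4.09 against 3.06, 3.44 and 2.57 (-1.35, SE 0.29, adjusted p = 0.00038).

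MiR-106a-5p, which gives the cluster its name and is 1 base from miR-17-5p, was the least firm of the 10. Its control samples were at 5.38, 6.15 and 5.62 at 24 h and its Ikaros samples at 4.34, 5.21 and 4.80, which did not overlap. The difference was -0.93 (SE 0.35) with adjusted p = 0.0349. The call was lost in 9 of 15 alternative analyses, with adjusted p up to 0.180. Among these were leaving out control replicate 2 (-0.71, adjusted p = 0.161), control replicate 4 (-0.98, adjusted p = 0.0600), Ikaros replicate 1 (-0.71, adjusted p = 0.162) or Ikaros replicate 4 (-0.94, adjusted p = 0.0680). At 0 h it was the arm of the cluster whose samples overlapped between the lines (-0.30, adjusted p = 0.792).

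**Figure D2:**
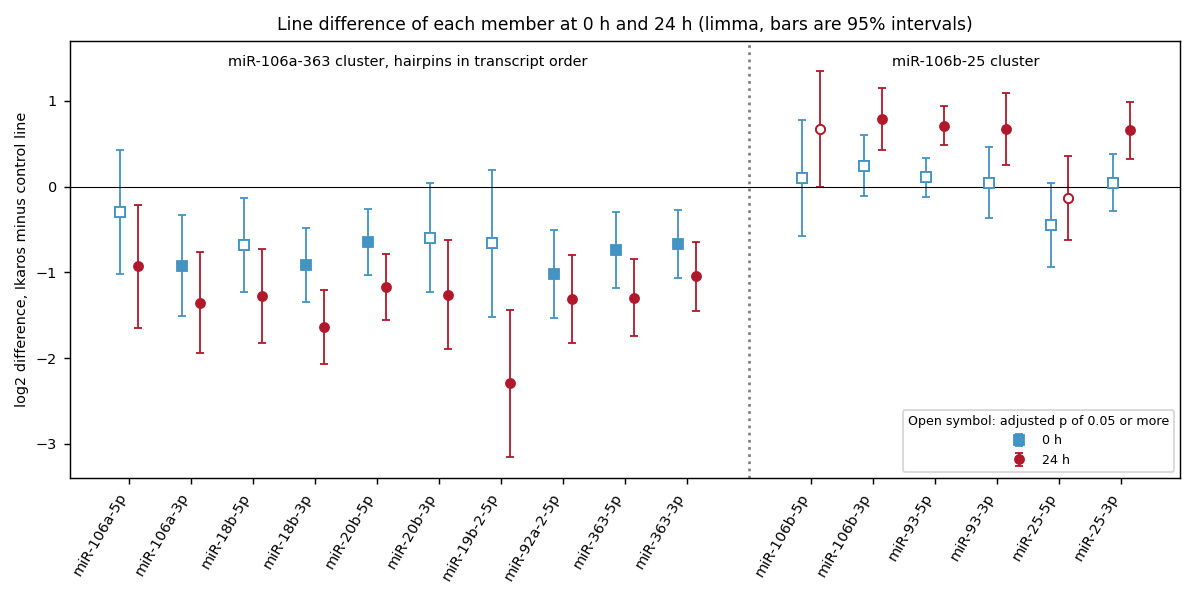
The log2 difference between the lines (Ikaros minus control) is plotted for each member at 0 h (blue squares) and 24 h (red circles) with 95% intervals from limma; filled symbols have an adjusted p under 0.05, and hairpins are in transcript order. All 10 miR-106a-363 arms are below 0 at both times and filled at 24 h, whereas 4 of the 6 miR-106b-25 arms are filled above 0 at 24 h and none at 0 h.

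A difference between the lines existed before induction. At 0 h, 6 of the 10 arms were called lower, where 4.05% of all miRNAs were called lower and 8.53% in either direction: miR-106a-3p (-0.92), miR-92a-2-5p (-1.02), miR-18b-3p (-0.91), miR-363-5p (-0.74), miR-363-3p (-0.67) and miR-20b-5p (-0.65). The samples of 9 of the 10 arms did not overlap between the lines, where 13.6% of all miRNAs lay without overlap on the lower side. The median of the cluster was -0.67, against -0.03 over all miRNAs. The count of called members rested on single libraries: it was 1 without control replicate 2, 2 without control replicate 1, and 3 without Ikaros replicate 1 or Ikaros replicate 4. The direction was the same for the 3 same-numbered pairs of samples for all of the 10 arms except miR-106a-5p, for which 1 of the 3 pairs was higher in the Ikaros line.

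**Figure D3:**
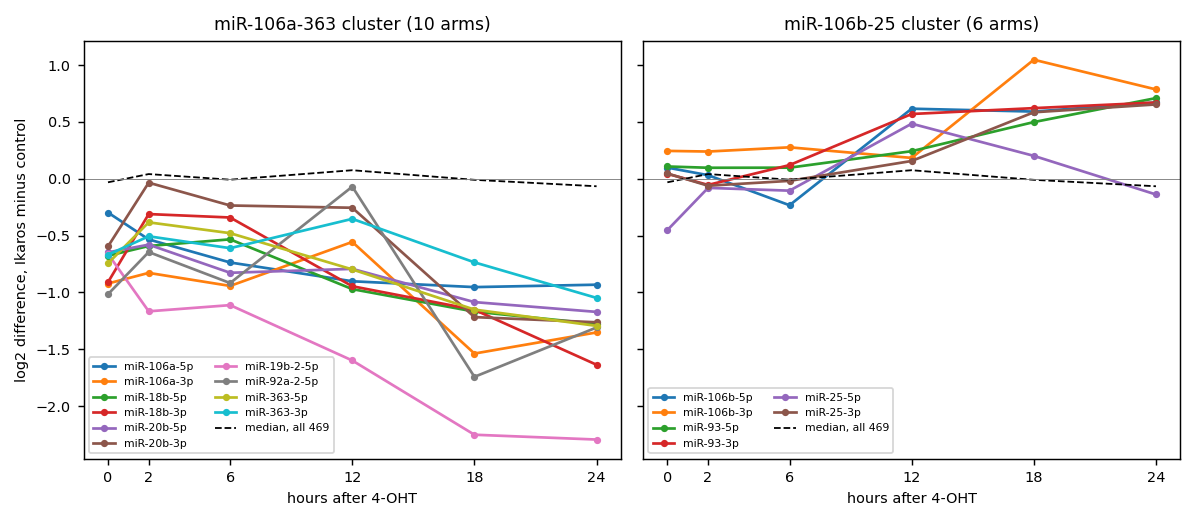
The log2 difference between the lines (Ikaros minus control) is plotted against hours after 4-OHT for the 10 arms of the miR-106a-363 cluster (left) and the 6 arms of the miR-106b-25 cluster (right), with the median of all 469 miRNAs as a dashed line. The left-hand curves stay below 0 at all 6 times, with medians of -0.67 at 0 h and -1.29 at 24 h, and the right-hand curves lie around 0 up to 6 h and above it at 18 h.

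Over the course, the number of miR-106a-363 arms called lower at 2, 6, 12 and 18 h was 1, 4, 5 and 10, where 4.05%, 7.25%, 9.17% and 16.8% of all miRNAs were called lower. The cluster medians at these times were -0.56, -0.67, -0.80 and -1.16. The arm called at 2 h was miR-20b-5p (-0.58, adjusted p = 0.0448). At 6 h the called arms were miR-106a-3p (-0.94), miR-92a-2-5p (-0.92), miR-20b-5p (-0.83) and miR-363-3p (-0.61). At 12 h they were miR-19b-2-5p (-1.60), miR-18b-5p (-0.97), miR-18b-3p (-0.95), miR-363-5p (-0.80) and miR-20b-5p (-0.79). The 12 h samples were spread more widely for some arms: miR-19b-2-5p was at 2.43, 2.203 and 4.56 in the Ikaros line against 3.65, 5.05 and 5.29 in the control line, with Ikaros replicate 4 inside the control range. The count of members called over both clusters was 4 at 6 h, but 1 without control replicate 4 and 2 without Ikaros replicate 1 or Ikaros replicate 4. It was 6 at 12 h, but 2 without Ikaros replicate 1 and 3 without Ikaros replicate 2. At 2 h the call was lost without control replicate 1, control replicate 4 or Ikaros replicate 2.

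The miR-106b-25 cluster went the other way. None of its 6 arms was called by limma at 0, 2 or 6 h, where 40, 53 and 71 of 469 miRNAs were. None had an unadjusted p under 0.05 at these times, where 75, 123 and 121 of all miRNAs did. At 0 h the samples of miR-106b-3p and miR-93-5p lay without overlap on the higher side, though neither was called. How many of all miRNAs did so on that side is not given here, so this separation is not read as unusual. The 0 h samples of miR-25-5p lay without overlap on the lower side, where 13.6% of all miRNAs did. At 12 h miR-93-3p alone was called higher (0.57, adjusted p = 0.0429), where 12.6% of all miRNAs were. At 18 h and at 24 h, 4 of the 6 arms were called higher, where 13.0% and 17.9% of all miRNAs were called higher, and these were miR-106b-3p, miR-93-5p, miR-93-3p and miR-25-3p at both times. The cluster median was 0.07 at 0 h, 0.59 at 18 h and 0.67 at 24 h.

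MiR-93-5p, the most abundant carrier of the AAAGUGC seed among the members, had the tightest replicates. At 0 h it was at 13.85, 13.77 and 13.74 in the control line and at 13.86, 13.89 and 13.94 in the Ikaros line. At 24 h it was at 13.74, 13.74 and 13.68 in the control line and at 14.38, 14.48 and 14.44 in the Ikaros line. The control line thus stayed within a narrow band while the Ikaros samples stood above all control samples at 24 h, by 0.71 on the log2 scale (SE 0.11, 1.64-fold, adjusted p = 1.08e-05). The Ikaros means were in the order of time, 13.89, 13.91, 13.95, 14.04, 14.26 and 14.43 from 0 to 24 h, and each exceeded all 6 control means. Of the 11 neighbouring means in that order, 2 were apart by more than the larger of their SDs. MiR-93-3p was at 3.78, 3.87 and 4.28 against 4.89, 4.48 and 4.56 at 24 h (0.67, SE 0.20, adjusted p = 0.00939). Its call was lost without Ikaros replicate 1 (0.55, adjusted p = 0.0582) and without control replicate 1 (0.57, adjusted p = 0.0511).

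MiR-25-3p, the most abundant member, was at 14.80, 15.15 and 15.06 in the control line at 24 h and at 15.53, 15.59 and 15.85 in the Ikaros line. The groups did not overlap, and the log2 difference was 0.65 (SE 0.16, 1.57-fold, adjusted p = 0.00203). After quantile normalization of the samples the difference was 0.11 with adjusted p = 0.746. MiR-106b-3p was at 7.97, 8.16 and 8.21 against 8.9999, 8.58 and 9.12, a difference of 0.79 (SE 0.18, adjusted p = 0.000685), and at 18 h its difference was 1.05 (SE 0.18, adjusted p = 3.03e-05). The latter was the largest positive difference of a member at any of the 6 times.

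The arms not called at 24 h were miR-106b-5p and miR-25-5p. MiR-106b-5p was at 10.34, 10.75 and 10.79 in the control line and at 10.96, 11.22 and 11.71 in the Ikaros line. The samples did not overlap, but the spread over all times was wide for this arm, and the difference of 0.67 (95% interval -0.01 to 1.35) had adjusted p = 0.105. MiR-25-5p was at 6.18, 6.08 and 5.99 against 5.86, 5.88 and 6.09, with overlap and a difference of -0.14 (95% interval -0.63 to 0.35, adjusted p = 0.683). It turned to 0.10 when the median of each sample was subtracted. At 24 h, 5 of the 6 arms lay without overlap on the higher side, where 23.9% of all miRNAs did, and 10 of the 10 arms of the miR-106a-363 cluster on the lower side, where 30.3% did.

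Whether the difference at 24 h exceeded that at 0 h was tested as a contrast of its own. Only miR-93-5p passed (0.60, SE 0.16, adjusted p = 0.0112), where 5.76% of the 469 miRNAs were called on the higher and 6.61% on the lower side. All 6 arms of the miR-106b-25 cluster had a positive difference of differences, with a median of 0.59, and all 10 arms of the miR-106a-363 cluster a negative one, with a median of -0.58. The median over all miRNAs was -0.05. The values of miR-19b-2-5p (-1.63, SE 0.59, adjusted p = 0.0698), miR-25-3p (0.61, SE 0.23, adjusted p = 0.0876) and miR-18b-3p (-0.73, SE 0.30, adjusted p = 0.113) did not pass. For the other arms of the miR-106a-363 cluster the interval of this contrast spanned 0, as for miR-363-3p (-0.95 to 0.18) and miR-92a-2-5p (-1.02 to 0.43). The increase of the line difference from 0 to 24 h was therefore not shown for any single arm of that cluster. The call of miR-93-5p was lost after quantile normalization (0.36, adjusted p = 0.414). It was also lost with replicate 1 (0.59, adjusted p = 0.145), 2 (0.59, adjusted p = 0.217) or 4 (0.62, adjusted p = 0.0755) left out of all groups. In a fit with culture batch as replicate block, 2 members were called, the other being miR-18b-3p (adjusted p = 0.0283), and without Ikaros replicate 4 of 0 h, 3 members were called, miR-93-5p, miR-25-3p and miR-18b-3p.

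A test over all 6 times (an F test of line by time) called 4 of the 16 members, where 13.0% of all miRNAs were called. These were miR-18b-3p (adjusted p = 0.012), miR-93-5p (adjusted p = 0.0158), miR-92a-2-5p (adjusted p = 0.0159) and miR-106b-3p (adjusted p = 0.0412). Without any one of the 36 libraries the first 3 were still called (adjusted p up to 0.0478), whereas miR-106b-3p was called in 14 of these 36 fits (adjusted p up to 0.120). None of the 4 was called by limma with replicate 1, 2 or 4 in turn left out of all groups. After quantile normalization miR-93-5p (adjusted p = 0.595) and miR-106b-3p (adjusted p = 0.0951) were not called, and with sample medians subtracted miR-18b-3p (adjusted p = 0.0572) and miR-92a-2-5p (adjusted p = 0.0541) were not. For miR-92a-2-5p the line difference did not follow a steady course: from 0 to 24 h it took the values -1.02, -0.65, -0.92, -0.07, -1.74 and -1.31. At 12 h the control samples of this low-level arm were at 1.65, 0.61 and 1.52, lower than at any other time, and overlapped the Ikaros samples at 1.48, 0.98 and 1.10. For miR-18b-3p the values over the same times were -0.91, -0.31, -0.34, -0.95, -1.15 and -1.64.

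Within a line, 24 h was compared with 2 h, since both times came from the same culture batches. In the Ikaros line 4 members were called, where 28.6% of all miRNAs were called. MiR-93-5p rose from 13.77, 13.96 and 13.98 at 2 h to the 24 h values given above, by 0.53 (SE 0.11, adjusted p = 0.000721). MiR-18b-3p fell from 7.65, 7.94 and 7.94, a difference of -1.01 (SE 0.21, adjusted p = 0.000576), and for both miRNAs the 2 h and 24 h samples did not overlap. MiR-19b-2-5p fell from 3.17, 3.56 and 3.98 (-1.23, SE 0.42, adjusted p = 0.0285), and miR-363-3p from 11.02, 10.64 and 10.33 (-0.55, SE 0.20, adjusted p = 0.0352), the latter with overlap. The median was -0.49 for the miR-106a-363 arms, with 10 of 10 negative, and 0.36 for the miR-106b-25 arms, with 5 of 6 positive, against -0.11 over all miRNAs. In a fit with culture batch as replicate block 6 members were called, miR-93-3p (0.50, adjusted p = 0.0390) and miR-25-3p (0.42, adjusted p = 0.0440) being added. Of 15 alternative analyses, miR-18b-3p was called in 15, miR-93-5p in 12, miR-19b-2-5p in 9 and miR-363-3p in 6. The call of miR-93-5p was lost after quantile normalization (0.28, adjusted p = 0.307), with only the groups compared (adjusted p = 0.0828) and without replicate 2 of all groups (adjusted p = 0.0570). That of miR-19b-2-5p was lost without Ikaros replicate 2 of 2 h (-1.23, adjusted p = 0.0651), replicate 4 of 2 h (-1.02, adjusted p = 0.102) or replicate 4 of 24 h (-1.06, adjusted p = 0.0984). That of miR-363-3p was lost without Ikaros replicate 1 of 2 h (-0.37, adjusted p = 0.215), replicate 2 of 2 h (-0.56, adjusted p = 0.0721), replicate 1 of 24 h (-0.41, adjusted p = 0.187) or replicate 2 of 24 h (-0.53, adjusted p = 0.0846), so that 2 members were called without Ikaros replicate 2 of 2 h.

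In the control line 0 of the 16 members and 0 of the 469 miRNAs were called between 2 h and 24 h by limma (0% called), and 33 of all miRNAs had an unadjusted p under 0.05. Of the members 1 did, miR-20b-3p (0.92, SE 0.31, unadjusted p = 0.00621, adjusted p = 0.324). Its control samples were at 3.55, 2.96 and 2.04 at 2 h and at 3.84, 3.68 and 3.78 at 24 h. The medians were 0.22 for the miR-106a-363 arms and -0.23 for the miR-106b-25 arms. The control samples of 2 h and 24 h were mostly sequenced in different batches. Time and sequencing batch can therefore be told apart in this comparison only through the authors' adjustment. MiR-25-3p had a control mean of 15.30 ± 0.16 (SD, n = 3) at 2 h and 15.00 ± 0.18 at 24 h, and an Ikaros mean of 15.24 ± 0.29 and 15.66 ± 0.17.

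Both arms of a hairpin come from the same precursor. For the 7 member hairpins with both arms listed, the 5p minus 3p difference within each sample was compared between the lines at 24 h. Of these 7, 1 was called, where 13.2% of 129 hairpins were called. This was miR-25, whose 5p minus 3p difference was -8.63, -9.07 and -9.07 in the control samples and -9.67, -9.71 and -9.76 in the Ikaros samples, a line difference of -0.79 (SE 0.26, adjusted p = 0.0406). The call was lost without control replicate 1 (-0.64, adjusted p = 0.184), control replicate 2 (adjusted p = 0.0606), or any of Ikaros replicates 1, 2 and 4 (adjusted p = 0.0592, 0.0986 and 0.0887). After quantile normalization, an analysis added after the data were seen, the value was -0.17 (adjusted p = 0.745). At 0 h the line difference of the miR-25 arms was -0.50 and not called (adjusted p = 0.981), and limma called 0 of 129 hairpins there, 4 having an unadjusted p under 0.05. In the contrast of 24 h beyond 0 h it was -0.29 (95% interval -1.04 to 0.45, adjusted p = 0.836), where limma called 4 of 129 hairpins. For miR-93 the line difference of the arms was 0.04 (95% interval -0.46 to 0.54), for miR-20b 0.09 (-0.65 to 0.83) and for miR-106b -0.11 (-0.83 to 0.60).

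The arms themselves were very unequal. The 5p arm of miR-93 exceeded the 3p arm by 9.75 ± 0.31 log2 units (SD, n = 3) in the control line at 24 h, that of miR-20b by 8.27 ± 0.21 and that of miR-106b by 2.51 ± 0.12. For miR-25 the order was reversed, with a 5p minus 3p difference of -8.92 ± 0.26, and for miR-363 it was -3.30 ± 0.28. MiR-106a was the most balanced of the 7, with the 5p arm higher by 1.34 ± 0.57. The levels of miR-106a-5p and miR-20b-5p in these differences carry the uncertainty of near copies given above.

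Relatives with the same seed were compared in the same way, each member minus its miR-17-92 relative within a sample. MiR-92a-3p, the relative of miR-25-3p and miR-363-3p, also comes from Mir92-2 on chromosome X. These pairs are therefore not a comparison with miR-17-92 alone. Of 7 such pairs, 5 were called at 24 h, where 45.2% of 104 same-seed pairs in the table were called. The members from chromosome 5 were higher relative to their relatives. MiR-93-5p exceeded miR-17-5p by 7.27, 6.64 and 7.21 log2 units in the control samples and by 8.64, 8.10 and 8.16 in the Ikaros samples, a line difference of 1.26 (SE 0.33, adjusted p = 0.00295). MiR-25-3p exceeded miR-92a-3p by 2.95, 2.59 and 2.44 in the control samples and by 4.06, 3.71 and 3.41 in the Ikaros samples, a line difference of 1.07 (SE 0.16, adjusted p = 5.87e-06). For both pairs the lines did not overlap. After quantile normalization the latter was 0.61 (adjusted p = 0.164) and the former 1.14 (adjusted p = 0.0284). For miR-106b-5p minus miR-17-5p the difference was 1.23 (SE 0.54, adjusted p = 0.0630). Because miR-17-5p is a near copy of miR-106a-5p, the pairs of miR-93-5p and miR-106b-5p with it share the uncertainty of divided reads.

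The members from chromosome X were lower relative to their relatives. The pairs of miR-18b-5p, miR-20b-5p and miR-106a-5p consist of near copies. Their differences are uncertain, since it is not known how reads were divided between such copies. MiR-18b-5p minus miR-18a-5p was -1.46, -1.44 and -1.29 in the control samples and -2.51, -1.92 and -1.88 in the Ikaros samples at 24 h (-0.70, SE 0.14, adjusted p = 0.000261). MiR-363-3p minus miR-92a-3p differed by -0.63 (SE 0.23, adjusted p = 0.0309) and miR-20b-5p minus miR-20a-5p by -0.35 (SE 0.14, adjusted p = 0.0364). MiR-106a-5p minus miR-17-5p differed by -0.38 (SE 0.18, adjusted p = 0.0774). The call for miR-20b-5p was lost without any of the 24 h libraries other than Ikaros replicate 2 (adjusted p between 0.0522 and 0.126), and that for miR-363-3p without control replicate 1 (adjusted p = 0.128), Ikaros replicate 2 (adjusted p = 0.0536) or Ikaros replicate 4 (adjusted p = 0.103). The count of pairs called was 3 without control replicate 1 or Ikaros replicate 4.

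**Figure D4:**
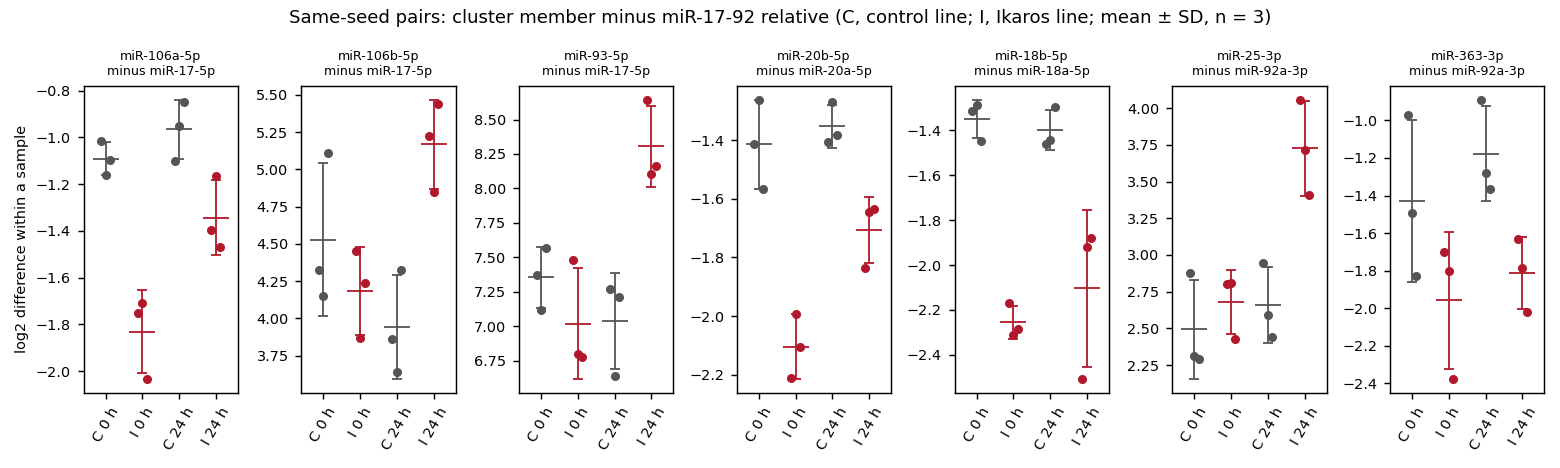
Each panel shows, for 1 member and its miR-17-92 relative with the same seed, the log2 difference within each sample at 0 h and 24 h in the control line (C, grey) and the Ikaros line (I, red); points are samples, dashes with bars the mean and SD (n = 3), and each panel has its own vertical axis. MiR-93-5p minus miR-17-5p and miR-25-3p minus miR-92a-3p stand above the control samples without overlap at 24 h, whereas the means of the chromosome X pairs are lower in the Ikaros line at 0 h already.

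At 0 h the called pairs were all from chromosome X, and all consist of near copies, with the uncertainty given above. These pairs were miR-18b-5p minus miR-18a-5p (-0.91, adjusted p = 6.34e-05), miR-20b-5p minus miR-20a-5p (-0.69, adjusted p = 0.000541) and miR-106a-5p minus miR-17-5p (-0.74, adjusted p = 0.00296), where 15.4% of the 104 pairs were called. For miR-93-5p and miR-25-3p the pair differences at 0 h were -0.33 (adjusted p = 0.549) and 0.19 (adjusted p = 0.506). As a contrast of 24 h beyond 0 h, miR-93-5p minus miR-17-5p changed by 1.60 (SE 0.47, adjusted p = 0.0158) and miR-25-3p minus miR-92a-3p by 0.88 (SE 0.23, adjusted p = 0.0076), where 13.5% of the pairs were called. The former value again depends on how reads of miR-17-5p were divided. The 4 chromosome X pairs lay between -0.11 and 0.36 in that contrast and none was called.

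For the miR-17-92 cluster itself, 7 of its 12 listed arms were called lower in the Ikaros line at 24 h and 0 higher, where 22.0% of all miRNAs were called lower. The 12 include miR-19b-3p and miR-92a-3p, which hairpins of miR-106a-363 also produce. By limma 0 of the 12 arms were called at 0 h (1 with an unadjusted p under 0.05), where 8.53% were called in either direction, and 4 were called lower at 24 h beyond 0 h, where 6.61% were. The median of the 12 arms at 24 h was -0.68, against -0.07 over all miRNAs. The relatives used in the pairs were at -0.56 for miR-17-5p (adjusted p = 0.205), -0.82 for miR-20a-5p (adjusted p = 0.00656), -0.57 for miR-18a-5p (adjusted p = 0.0906) and -0.41 for miR-92a-3p (adjusted p = 0.233). MiR-19b-1-5p, which has the seed of miR-19b-2-5p, was at -2.06 at 24 h (SE 0.35, adjusted p = 2.57e-05) and at -0.22 at 0 h (adjusted p = 0.866).

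The profile of each cluster over the 12 groups was described by the mean of its centred member values. Members of the miR-106a-363 cluster correlated with the mean of the other members by Pearson's r of 0.845 to 0.979 over the 12 group means. In the miR-106b-25 cluster r was 0.771 to 0.891 for 5 arms and 0.157 for miR-25-5p. Outside the members, the profiles most like that of miR-106a-363 were those of miR-34c-5p (r = 0.947), miR-582-5p (r = 0.946) and miR-19b-1-5p (r = 0.945). Those most like miR-106b-25 were miR-128-3p (r = 0.971), miR-677-5p (r = 0.940) and miR-194-5p (r = 0.914). These correlations describe 12 group means that share their libraries and normalization, and no test was made of them.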

How the data were processed

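Small RNA libraries of 36 samples were prepared with the TruSeq Small RNA kit. Per the methods and labels, the authors used Novoalign for alignment to miRBase mouse sequences, multiBamCov for counting and NOISeq for a CPM filter. GC correction (cqn), TMM, a ComBat adjustment for the sequencing batch and averaging of technical replicates followed. The deposited values are log2, for 469 miRNAs. Counts and depth were not analysed here, so precision rests on 3 samples per group, grouped by line and time from the labels.

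A model of 12 groups was fitted to the whole table with limma 3.58.1 in R 4.3.3 (empirical Bayes with a mean-variance trend, 24 residual degrees of freedom), without filter or pseudocount, and p-values were adjusted by Benjamini-Hochberg over all features tested. Arm differences (129 hairpins) and same-seed pairs (104) were fitted likewise. The fit was tested on simulated data. A permutation of 3 against 3 samples cannot go below p = 0.1.

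Same-numbered samples of both lines share a culture batch per the labels (batches 4, 5 and 6 at 0 h, 1, 2 and 3 later). Their deviations from the group means correlated by 0.06 to 0.41 by time. Between 24 h and 2 h of the same line, the deviations correlated by -0.38 in the Ikaros line and by 0.01 in the control line. The main fit took samples as independent, and a negative correlation makes the error of the 24 h minus 2 h difference larger than that fit assumes. Alternatives were the culture batch as block, other scalings, only the groups compared, a filter on low values, no trend and leaving out replicates or libraries. Text names all 16 members, miR-17-92 arms paired with a member, and the 3 most similar miRNAs per cluster. The members and lists were chosen with earlier results of these data known. Mature sequences were taken from RefSeq (GRCm38.p6), matched by name for 391 miRNAs.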

Additional observations from a re-analysis of the deposited data

Results flagged for a closer look

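Effects of the line that differed between times were called for 4 members, but for 2 with medians subtracted, after quantile normalization or without a trend, and for 0 without replicate 1, 2 or 4 of all groups. For miR-93-5p the line difference at 24 h exceeded that at 0 h by 0.60 on the log2 scale (SE 0.16, adjusted p = 0.0112). After quantile normalization this excess was 0.36 (adjusted p = 0.414). With replicate 1, 2 or 4 left out of all groups it was not called (adjusted p = 0.145, 0.217 and 0.0755). The test of line by time over 6 times gave an adjusted p of 0.0158 for miR-93-5p. The same test over 6 times gave an adjusted p of 0.012 for miR-18b-3p, 0.0159 for miR-92a-2-5p and 0.0412 for miR-106b-3p. These tests were part of the limma model over 469 miRNAs, and 0 h came from other culture batches than the later times.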

How the results depend on the processing

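Precision rests on 3 samples per group, since the deposited log2 values hold no counts, and at 2 to 18 h line and sequencing batch are separated only through the authors' adjustment, which used samples run in both batches. Subtracting sample medians moved the median line difference of all miRNAs at 24 h from -0.07 to 0.17. Counts of called members that changed most were these. At 2 h (1 called), 2 were called with medians subtracted, 4 after quantile normalization, and 0 with only the groups compared or without a trend. At 12 h (6 called) only the groups compared gave 0. For 24 h beyond 0 h (1 called), the replicate block of culture batch gave 2, quantile normalization 0 and only the groups compared 2. For line by time (4 called), medians subtracted, quantile normalization and no trend gave 2 each. For 24 h minus 2 h within the Ikaros line (4 called), only the groups compared gave 2, quantile normalization 3, no trend 5, and the replicate block and the filter on low values 6 each. For arms (1 called), only the groups compared and quantile normalization gave 0. For same-seed pairs (5 called), quantile normalization gave 2. At 24 h (14 called) quantile normalization gave 12, miR-106a-5p and miR-25-3p being lost, and the filter 13, and at 18 h (14 called) they gave 11 and 13. The replicate block also gave 5 at 0 h (6 called) and 7 at 12 h, and left the other counts as they were.

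Leaving out a replicate number or a library, called members ranged from 0 to 5 at 0 h, 0 to 2 at 2 h, 0 to 4 at 6 h, 1 to 7 at 12 h, 7 to 14 at 18 h and 11 to 14 at 24 h (14 called at both of these). They ranged from 0 to 3 for 24 h beyond 0 h, 0 to 6 for line by time, 1 to 5 within the Ikaros line, 0 to 0 within the control line, 0 to 1 for arms and 2 to 4 for pairs. Over the members' values in 3 contrasts, 753 alternatives kept direction and side of the threshold, 38 lost the call, 18 gained it and 4 changed sign. The last were miR-25-5p, line difference at 24 h, with medians subtracted (0.10), miR-25-3p, line difference at 24 h beyond 0 h, after quantile normalization (-0.21), and miR-106b-5p, 24 h minus 2 h within the Ikaros line, without replicate 4 (-0.37) and without Ikaros_2h replicate 4 (-0.17), where leaving out replicates or libraries gave -0.37 to 0.64. None of these 3 was called before. MiR-92a-2-5p was left out by the filter on the lowest 25% of means. The cause of these changes was not tested.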
